A study of Homo sapiens with 6 samples.

Results

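Kasumi-1 is a human acute myeloid leukemia (AML) cell line with the t(8;21) translocation, which makes the RUNX1-RUNX1T1 fusion protein. The genes described here are the transcription factors of the blood stem cell "heptad" other than RUNX1, with their GATA partners and MYB. They are TAL1, LYL1, LMO2, GATA2, ERG and FLI1 of the heptad itself, and GATA1, ZFPM1, LDB1 and MYB. They were chosen by name, with earlier results of these data known. All 10 of them were found by Ensembl identifier among the 29810 genes of the deposited table.

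The study incubated Kasumi-1 cells with 0.25 μM I3, an inhibitor of histone deacetylases (HDACs), or with vehicle (DMSO) as the control, to look for the route by which the compound drives the cells to differentiate. The labels give 48 h for both groups and 3 libraries per group. A figure legend of the study gives a longer incubation, and the name of the deposited table spells the compound I13. Both groups are the same line, so all libraries carry the fusion gene, and the labels do not say whether the libraries of a group came from separate cultures. The p-values below therefore measure the spread between these libraries, which may be technical.

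In blood stem and progenitor cells the heptad factors sit together on shared regulatory elements, many of them near each other's genes. TAL1 and LYL1 are related basic helix-loop-helix (bHLH) factors that bind DNA as dimers with E proteins. LMO2 does not bind DNA itself and bridges the bHLH dimer to GATA factors, with LDB1 as the scaffold that joins such complexes to each other. ERG and FLI1 are ETS factors, and ZFPM1 (FOG1) is the cofactor of GATA1. In Kasumi-1 cells LYL1, LMO2, LDB1 and E proteins are known to form a stable complex with the RUNX1-RUNX1T1 protein.

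Of the 10 genes, LYL1 and LMO2 had lower values in all 3 I3 libraries than in any control library, by 16.6% and 17.5% of the control mean. Groups failed to overlap in this direction for 4.64% of all tested genes. With the GC trend of each library removed, that is the part of its values that follows the GC content of transcripts, the groups still did not overlap for LMO2, but they did for LYL1, whose log2 fold change went from -0.27 to -0.15. No gene of the set passed the thresholds of the study in either direction, and neither did any other tested gene. The test used here differs from that of the study, which applied these thresholds with DESeq. The remaining expressed factors, which were TAL1, LDB1, GATA2, ERG, FLI1 and MYB, had overlapping groups. GATA1 was close to undetected in both groups, and its cofactor ZFPM1 was detected in every library but lay under the minimum level for the test. In bulk RNA, fewer cells that express a gene and less of its RNA per cell cannot be told apart.

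Since the heptad factors are known to act near each other's genes, upstream sequences were searched for their motifs, and 3 windows with a GATA match are shown to give the letters behind the counts. RefSeq start sites (GRCh38.p14) were at hand for 8 of the 10 genes, with 13 windows of 250 bases before a start. LMO2 and FLI1 are the genes without an entry. Each sequence reads 5′ to 3′ on the strand of its gene and ends at the base before the start. Capitals mark GATAA (the GATA core), GGAAG (an ETS core) and CAGNTG (an E-box, the bHLH site), searched on both strands. The letters of the motifs were settled with the sequences in view.

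LYL1, chr19:13102859-13103108, minus strand: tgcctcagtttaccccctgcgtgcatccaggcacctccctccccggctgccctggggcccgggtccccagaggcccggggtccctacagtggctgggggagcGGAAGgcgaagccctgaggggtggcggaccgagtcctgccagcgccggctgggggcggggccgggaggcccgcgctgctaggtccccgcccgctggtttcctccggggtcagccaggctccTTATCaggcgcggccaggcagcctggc
TAL1, chr1:47232336-47232585, minus strand: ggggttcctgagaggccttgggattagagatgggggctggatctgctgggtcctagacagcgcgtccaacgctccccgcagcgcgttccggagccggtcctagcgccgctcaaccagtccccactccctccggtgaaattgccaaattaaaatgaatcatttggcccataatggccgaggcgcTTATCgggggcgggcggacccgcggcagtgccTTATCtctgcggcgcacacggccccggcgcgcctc
ERG, chr21:38498478-38498727, minus strand: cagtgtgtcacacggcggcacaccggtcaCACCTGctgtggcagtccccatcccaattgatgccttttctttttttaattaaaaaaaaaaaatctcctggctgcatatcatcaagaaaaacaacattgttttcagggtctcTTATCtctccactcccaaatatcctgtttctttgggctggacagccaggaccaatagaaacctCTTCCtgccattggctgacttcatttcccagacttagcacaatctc

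The LYL1 window, at a start inside the annotated gene, held 1 GATAA match, 27 bases before the start, and 1 GGAAG match, 148 bases before it. The TAL1 window held GATAA matches 67 and 35 bases before the start. The ERG window, also at a start inside its gene, held all 3 motifs, as did an overlapping ERG window and no other of the 13. Of the 13 windows, 4 held GATAA, 7 held GGAAG and 5 held CAGNTG, and 3 held none of them, those of MYB and ZFPM1 and one of GATA2. The overlapping ERG windows share a match of each motif, so the same letters enter each of these counts for both windows. GATAA occurred in 20.4% of the 35116 windows of this length in the reference, GGAAG in 65.1% and CAGNTG in 42.5%. A match is a description of the letters and not evidence of binding. The GC content of the LYL1 window was 75.2%, against 64.8% for TAL1 and 44.8% for ERG.

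The authors deposited FPKM values, that is fragments scaled to the length of the gene and the depth of the library. Multiplied by exon length they gave whole reads, with a depth of 17500320 to 18193373 reads per library, so depth differed little between the groups. The values of the set were whole to within 0.00103 read. Libraries also differed in how the level of a gene followed the GC content of its transcripts. A rank correlation was taken across 12939 genes between GC content and how far a library lay from each gene's mean. It was -0.313, 0.446 and 0.337 in control 1, 2 and 3, and -0.232, 0.262 and -0.446 in I3 1, 2 and 3. Both signs occurred in each group, but most control values were positive and most I3 values negative, so the trend leaned with the groups. Values with this trend removed are therefore given beside the GC-rich factors. As a check of the label, MPO, KIT, CD34 and RUNX1T1, which Kasumi-1 cells are known to express, were all present, with mean levels of 8106, 207, 33.6 and 15.6 FPKM.

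The plot of levels in the 6 libraries shows all of the set on the FPKM scale, which takes the exon length of a gene into account. That length counts all annotated exons, whether or not the cells use them. The order of genes below holds for this scale and was not adjusted for GC content. LYL1 was highest, at 100.2 FPKM over the 6 libraries, a level above that of 97.6% of the 12960 genes that averaged 0.5 FPKM or more. MYB followed with 57.9, LMO2 with 40.6, LDB1 with 35.9, RUNX1 with 33.3, FLI1 with 19.0, ERG with 14.1, GATA2 with 12.0 and TAL1 with 4.50 FPKM. In each of the 6 libraries LYL1 exceeded MYB, MYB exceeded LMO2, RUNX1 exceeded FLI1, FLI1 exceeded ERG, and GATA2 exceeded TAL1, with ranges that did not overlap. The neighbours LMO2 and LDB1, LDB1 and RUNX1, and ERG and GATA2 had overlapping ranges, so their order is not settled by these libraries. ZFPM1 (0.338 FPKM) and GATA1 (0.0375 FPKM) lay far below the rest.

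**Figure D1:**
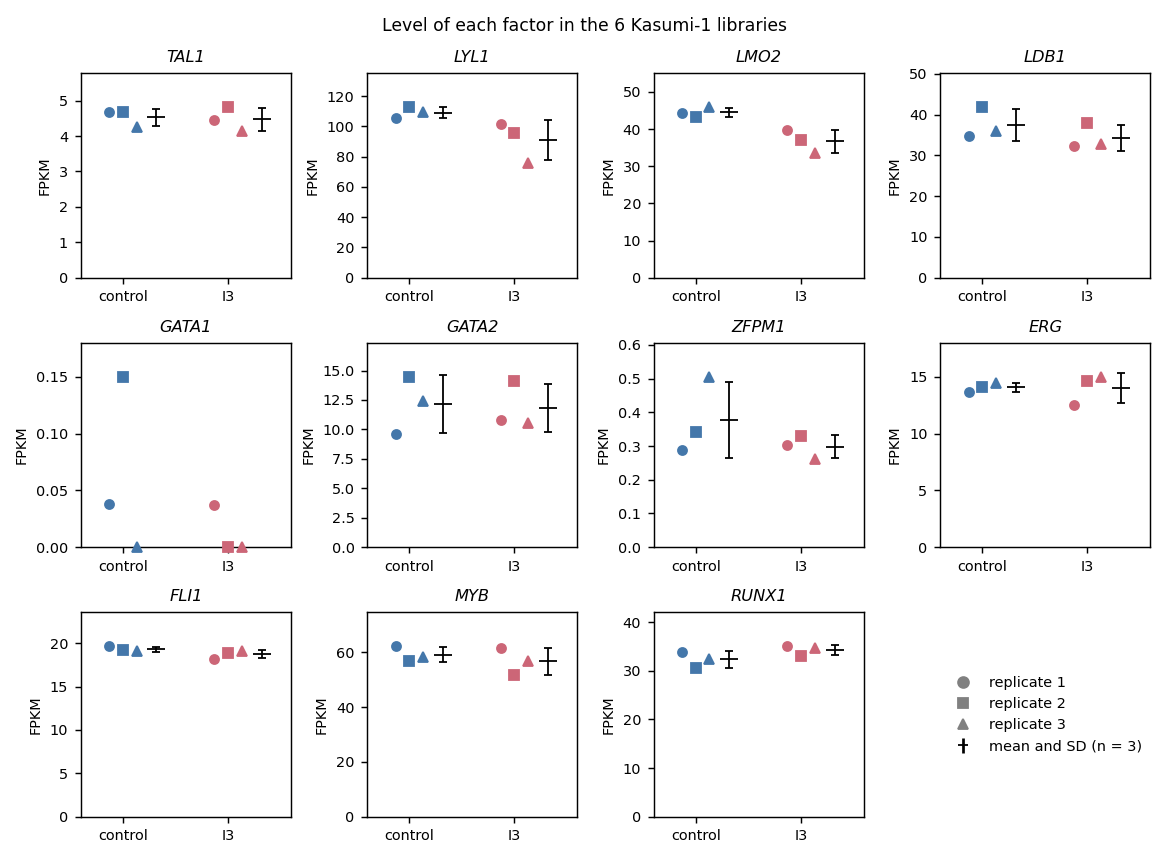
FPKM of each factor (vertical axes, each from 0) in control and I3 libraries, with 1 symbol per replicate number and black marks for the mean and SD of 3 libraries (left out for GATA1, which is at 0 in 3 libraries). All 3 I3 values of LYL1 and of LMO2 lie below the lowest control value, and the groups overlap for the other genes.

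The groups were compared with limma on log2(FPKM + 0.5), two-sided, over those 12960 genes. A gene was called at a Benjamini-Hochberg adjusted p under 0.05 if its log2 fold change also reached 0.58, up or down. These are the thresholds of the study, which applied them with DESeq and reported genes in both directions. The thresholds are thus shared with the study, but the test is not. Of the 8 factors that entered the test, 0 were called. This equals the rate over all genes, since limma called 0% of the 12960, with a smallest adjusted p of 0.309. At an unadjusted p under 0.05 without a fold threshold, 2 factors were lower, LMO2 and LYL1, and 0 were higher. The same threshold was passed by 2.85% of all tested genes in the lower and by 2.08% in the higher direction. limma's voom on the rebuilt reads also called 0 factors at the adjusted p and gave 2 lower at the unadjusted p.

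The 95% interval of the log2 fold change lay within 0.58 in either direction for all 8 tested factors. All 8 estimates were below 0, as were 45.8% of the estimates over all tested genes, but GATA2 turned positive once the GC trend was removed, and ERG after rescaling to TPM and after quantile normalization. The median log2 fold change was -0.052 for the 8 factors and 0.011 for all tested genes. Groups did not overlap for 2 factors in the lower and 0 in the higher direction, against 4.64% and 5.06% of all tested genes.

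**Figure D2:**
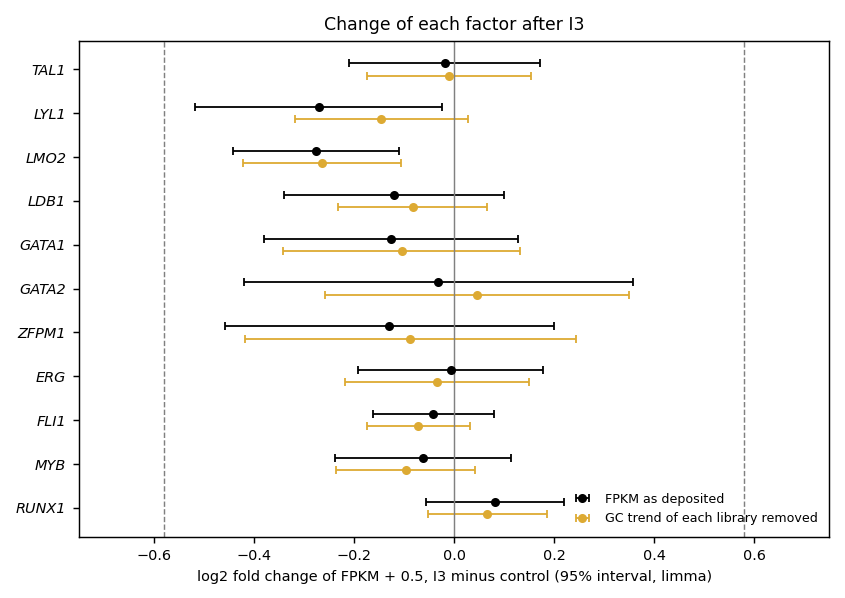
log2 fold change of each factor between I3 and control (horizontal axis, FPKM + 0.5) with its 95% interval from limma, as deposited (black) and with the GC trend of each library removed (yellow). Dashed lines mark the fold threshold of 0.58, which no interval drawn here reaches, and the LYL1 estimate moves from -0.27 to -0.15 between the 2 fits. For GATA1 and ZFPM1, which lie under the minimum level, the pseudocount sets the estimates and intervals, so larger changes are not excluded.

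Among the bHLH factors, LYL1 (ENSG00000104903) lies on chromosome 19 of GRCh38 from 13099033 to 13103161. Its level was 105.5, 112.7 and 109.5 FPKM in control 1, 2 and 3, and 101.8, 95.5 and 76.0 FPKM in I3 1, 2 and 3. The I3 values were all below the controls, but I3 1 missed the lowest control by little and I3 3 stood well below the other I3 libraries. The log2 fold change was -0.27 (standard error 0.105, 95% interval -0.52 to -0.024, unadjusted p = 0.0356, adjusted p = 0.998 by limma). The two-sided exact permutation p was 0.1, the smallest that 3 against 3 libraries allow. With 18044 reads in control and 15271 in I3, the ratio of reads scaled to depth was 0.833 with a 95% exact binomial interval of 0.815 to 0.851, which covers counting error only.

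The LYL1 difference was smaller with the GC trend removed and without I3 3. The transcripts of LYL1 have a median GC content of 69.2%, above that of 99.4% of the tested genes. I3 3, the library with the most negative GC trend, held the lowest LYL1 value. I3 2, whose trend was positive (0.262), held the next lowest, 95.5 FPKM. Whether GC content caused the difference was not tested. With the GC trend of each library removed, the LYL1 log2 fold change was -0.15 (95% interval -0.32 to 0.028, unadjusted p = 0.0871) and the groups overlapped. Without I3 3 it was -0.15 (unadjusted p = 0.0509, by limma).

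TAL1 (ENSG00000162367, chromosome 1 from 47216290 to 47232220) stood at a small part of the LYL1 level. It had 4.67, 4.67 and 4.25 FPKM in control libraries and 4.45, 4.81 and 4.15 FPKM in I3 libraries. The highest and the lowest value were both in I3 libraries, so the groups overlapped. Its log2 fold change was -0.019 (95% interval -0.21 to 0.17, adjusted p = 0.998 by limma), on 1368 reads in control and 1370 in I3. Part of the TAL1 exons overlaps an antisense gene, and the sources do not state a strand setting for the counting, so reads of the pair cannot be told apart.

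Of the bridging proteins, LMO2 (ENSG00000135363) lies on chromosome 11 from 33858576 to 33892289. It had 44.4, 43.3 and 45.8 FPKM in control libraries against 39.7, 37.0 and 33.5 FPKM in I3 libraries. The control values lay close together, and every I3 value was below them. The log2 fold change was -0.28 (standard error 0.0708, 95% interval -0.44 to -0.11, unadjusted p = 0.00544, adjusted p = 0.768 by limma), the 88th smallest p among the 12960 genes. The exact permutation p was 0.1. The ratio of 6140 to 7326 reads, scaled to depth, was 0.825. Its 95% exact binomial interval was 0.797 to 0.854, which covers counting error only and not the spread between libraries.

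The LMO2 difference was nearly as large with the GC trend removed and smaller without I3 3. The GC content of its transcripts is 55.7%. With the GC trend removed, the log2 fold change was -0.26 (unadjusted p = 0.0055), and all I3 values were again below all control values. With single libraries left out it ranged from -0.33 to -0.21, the last being the value without I3 3 (unadjusted p = 0.0139 by limma).

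LDB1 (ENSG00000198728, chromosome 10 from 102107560 to 102120453) had 34.7, 41.8 and 35.9 FPKM in control and 32.3, 38.0 and 32.8 FPKM in I3 libraries. I3 2 exceeded control 1 and control 3, so the groups overlapped. Between groups, LDB1 differed by a log2 fold change of -0.12 (95% interval -0.34 to 0.099, adjusted p = 0.998 by limma), and it was -0.041 without control 2. With transcripts of 60.1% GC, it was -0.083 with the GC trend removed.

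Of GATA1, GATA2 and GATA3, only GATA2 was above the minimum of 0.5 FPKM, and GATA3 averaged 0.421 FPKM. GATA2 (ENSG00000179348) lies on chromosome 3 from 128479427 to 128493185. It had 9.57, 14.5 and 12.5 FPKM in control libraries and 10.8, 14.2 and 10.5 FPKM in I3 libraries. Control 1 was lowest and control 2 highest, so the spread between libraries of a group was larger than the difference between groups. The log2 fold change was -0.032 (95% interval -0.42 to 0.36) and turned to 0.046 with the GC trend removed. The GC content of GATA2 transcripts, 64.8%, is above that of 96.4% of the tested genes.

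GATA1 (ENSG00000102145), the factor that replaces GATA2 as red cells and megakaryocytes mature, rested on 6 reads in all. The rebuilt reads were 1, 4 and 0 in control 1, 2 and 3, and 1, 0 and 0 in I3 1, 2 and 3. Scaled to depth, the ratio of 1 read in I3 to 5 in control was 0.197. Its 95% exact binomial interval, which covers counting error only, was 0.00416 to 1.76, so no difference was detectable at this depth. Its cofactor ZFPM1 had 31, 37 and 54 reads in control and 33, 36 and 29 reads in I3, or 0.261 to 0.505 FPKM. The groups overlapped, and the ratio of reads scaled to depth was 0.791 with an interval of the same kind of 0.60 to 1.04. Both genes were under the minimum of 0.5 FPKM, and in the fit without a minimum their log2 fold changes were each -0.13 (adjusted p = 0.898 and 0.902 by limma). The pseudocount sets these values: with 0.1 in place of 0.5 they were -0.44 for GATA1 and -0.24 for ZFPM1, and voom on the rebuilt reads gave -1.08 and -0.30. Without control 2 the GATA1 value was -0.018, and without control 3 the ZFPM1 value was -0.028. ZFPM1 transcripts have a GC content of 65.3%, and its log2 fold change was -0.088 with the GC trend removed.

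Of the ETS factors, FLI1 (ENSG00000151702, chromosome 11 from 128686535 to 128813267) had 19.6, 19.2 and 19.0 FPKM in control and 18.2, 18.9 and 19.0 FPKM in I3 libraries. Its range was the narrowest of the 8 tested factors relative to its mean, and control 3 and I3 3 met at the same level. FLI1 had a log2 fold change of -0.042 (95% interval -0.16 to 0.080), and with the GC trend removed it was -0.072, with all I3 values then below all controls (unadjusted p = 0.145 by limma).

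ERG (ENSG00000157554) lies on chromosome 21 from 38380027 to 38661780, the chromosome that also holds RUNX1. It had 13.7, 14.1 and 14.5 FPKM in control and 12.5, 14.6 and 15.0 FPKM in I3 libraries. Both the lowest and the highest value were I3 libraries, and the log2 fold change was -0.0073 (95% interval -0.19 to 0.18, adjusted p = 0.999 by limma).

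MYB (ENSG00000118513), which keeps progenitors proliferating, lies on chromosome 6 from 135181315 to 135219173. It had 62.1, 56.8 and 58.4 FPKM in control and 61.6, 51.6 and 56.9 FPKM in I3 libraries. I3 2 was lowest, and I3 1 exceeded control 2 and control 3. MYB had a log2 fold change of -0.062 (95% interval -0.24 to 0.11, adjusted p = 0.998 by limma). FLI1 and MYB also overlap antisense genes in some of their exon bases, SENCR and MYB-AS1 among them.

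RUNX1, the remaining heptad factor, had 34.0, 30.6 and 32.5 FPKM in control and 35.0, 33.1 and 34.6 FPKM in I3 libraries, a log2 fold change of 0.082 (95% interval -0.055 to 0.22). Reads from the part of RUNX1 that the fusion transcript keeps count here too and cannot be told apart.

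With the GC trend removed, 2 factors again had groups that did not overlap in the lower direction, against 5.62% of all tested genes, but these were LMO2 and FLI1, and LYL1 was no longer among them. The map of deviations places the GC-rich factors in the lower rows, where LYL1 in I3 3 was 0.38 below its mean on the log2 scale before the removal and 0.21 below it after.

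**Figure D3:**
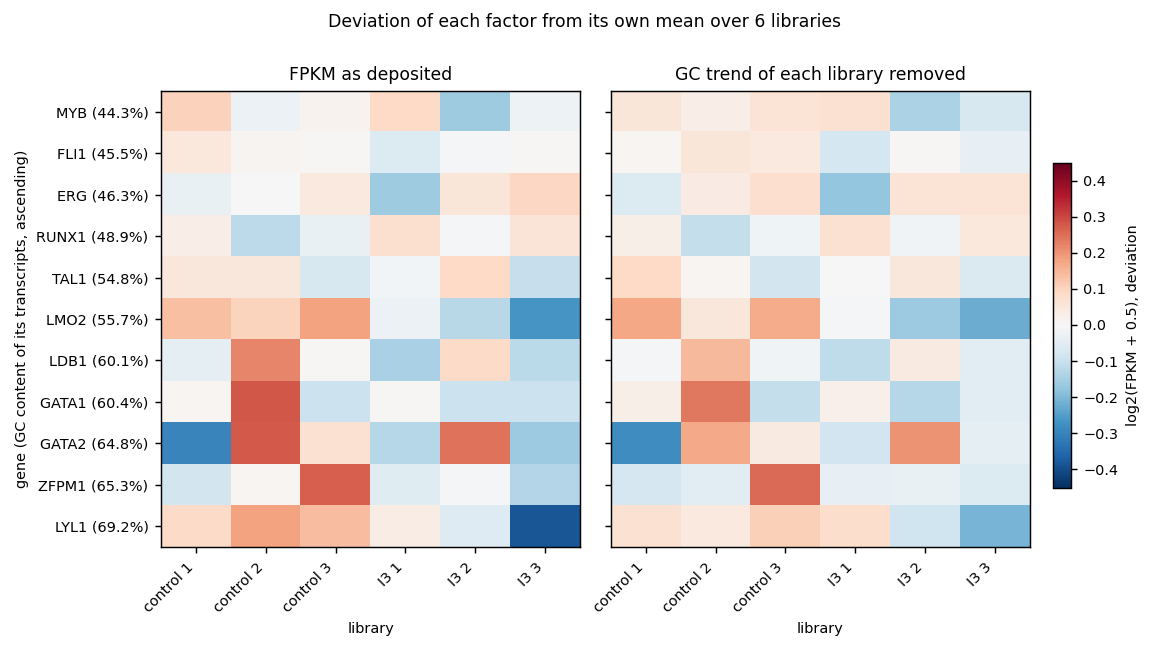
Deviation of log2(FPKM + 0.5) from the mean of the gene over 6 libraries (colour), with genes ordered by the GC content of their transcripts and libraries in columns, as deposited (left) and with the GC trend of each library removed (right). LMO2 is below its mean in all 3 I3 libraries in both panels, and the darkest cell on the left, LYL1 in I3 3 at -0.38, is paler on the right at -0.21.

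A ratio between factors of the same library does not depend on a scaling factor of that library, though a GC trend still enters it. Of 5 ratios between related factors or partners, all had overlapping groups. Two-sided exact permutation tests gave adjusted p of 0.5 or more over the 5, but with 3 against 3 libraries the smallest p is 0.1, so no ratio could have passed 0.05. The log2 ratio of TAL1 to LYL1 was -4.50, -4.59 and -4.69 in control and -4.52, -4.31 and -4.20 in I3 libraries. I3 1 fell among the controls, and the difference of 0.25 had an exact p of 0.2. It was 0.14 with the GC trend removed and 0.18 to 0.34 with single libraries left out. The log2 ratio of LMO2 to LDB1 was 0.36, 0.051 and 0.35 in control and 0.30, -0.040 and 0.029 in I3 libraries, a difference of -0.16 with an exact p of 0.2. The low control 2 value lay among the I3 values, and the difference ranged from -0.26 (without control 2 or without I3 1) to -0.090 (without I3 2). The log2 ratio of ERG to FLI1 differed by 0.035 (exact p = 0.6). The ratios of GATA1 to GATA2 and of ZFPM1 to GATA1 contain libraries at 0, rest on a pseudocount of 0.5 and differed by -0.094 and -0.0031 (exact p = 0.7 and 1).

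**Figure D4:**
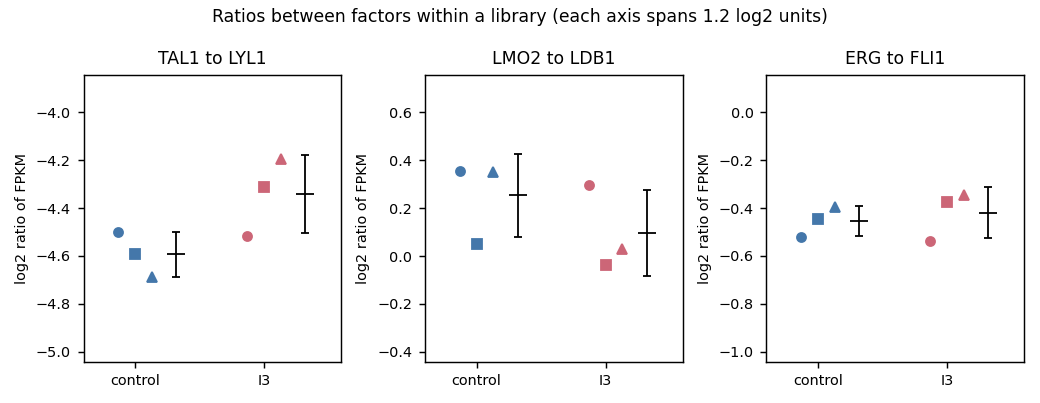
log2 ratio of FPKM between a pair of factors in the same library (vertical axes, each spanning the same range) in control and I3 libraries, with circle, square and triangle for replicate 1, 2 and 3 and black marks for mean and SD (n = 3). The groups overlap in each panel, with a difference of 0.25 for TAL1 to LYL1, -0.16 for LMO2 to LDB1 and 0.035 for ERG to FLI1.

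Next, 19 partners and relatives of these factors were examined, of which 18 were in the table and 12 passed the minimum of 0.5 FPKM. None was called, against 0% of all tested genes. At the unadjusted p, 3 were lower and 0 were higher, against 2.85% and 2.08% of all tested genes, and the median log2 fold change was -0.026. Groups did not overlap for 3 in the lower and 1 in the higher direction, against 4.64% and 5.06% of all tested genes. SSBP4, of the single-stranded DNA-binding proteins that hold LDB1, had 36.9 ± 4.58 FPKM (SD, n = 3) in control and 26.5 ± 3.43 FPKM (SD, n = 3) in I3 libraries. Its log2 fold change was -0.47 (95% interval -0.75 to -0.18, unadjusted p = 0.00592, adjusted p = 0.768 by limma), and all I3 values were below all controls. With the GC trend removed, the SSBP4 value was -0.36 (unadjusted p = 0.00444 by limma). The relatives SSBP3 and SSBP2 had log2 fold changes of -0.10 and 0.099.

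CBFA2T3 (ETO2), a corepressor of the TAL1 complex and a relative of the fusion partner RUNX1T1, had 4.40 ± 0.321 FPKM (SD, n = 3) in control and 3.65 ± 0.217 FPKM (SD, n = 3) in I3 libraries. Its log2 fold change was -0.24 (unadjusted p = 0.0231, adjusted p = 0.942 by limma), and -0.17 with the GC trend removed (unadjusted p = 0.0918). MYBL2, a cell cycle relative of MYB, was the most abundant of the list, with 104.8 ± 8.85 FPKM (SD, n = 3) in control and 86.8 ± 8.05 FPKM (SD, n = 3) in I3 libraries. Its log2 fold change was -0.27 (unadjusted p = 0.0164, adjusted p = 0.862 by limma), and -0.23 with the GC trend removed (unadjusted p = 0.0160). The groups of both genes did not overlap.

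Of the E proteins that pair with TAL1 and LYL1, TCF3 and TCF12 did not pass the unadjusted p. TCF4 was the gene of this list that was not found, so nothing can be said of it. TCF3, the second most abundant gene of the list at 41.1 FPKM, had a log2 fold change of -0.072 (95% interval -0.27 to 0.13). TCF12 had 0.12 (95% interval -0.013 to 0.25), with all I3 values above all controls. ZFPM2, a relative of ZFPM1, was listed at 0 in all 6 libraries, and LMO1, LDB2, TAL2, GATA3 and MYBL1 were under the minimum.

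Of 13 genes of stem and progenitor cells, many of them bound by heptad factors, 8 passed the minimum. At the unadjusted p, 1 was higher and 0 were lower, against 2.08% and 2.85% of all tested genes. This was CDK6, a kinase of early cell cycle entry, with 75.3 ± 8.06 FPKM (SD, n = 3) in control and 87.3 ± 6.32 FPKM (SD, n = 3) in I3 libraries and overlapping groups (log2 fold change 0.22, unadjusted p = 0.0448, adjusted p = 0.998 by limma). MYC (348 FPKM) and KIT (207 FPKM) were the most abundant, with log2 fold changes of -0.019 and 0.038. MECOM was listed at 0 in all libraries, and MEIS1 and PROM1 reached at most 0.0205 and 0.00756 FPKM.

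**Figure D5:**
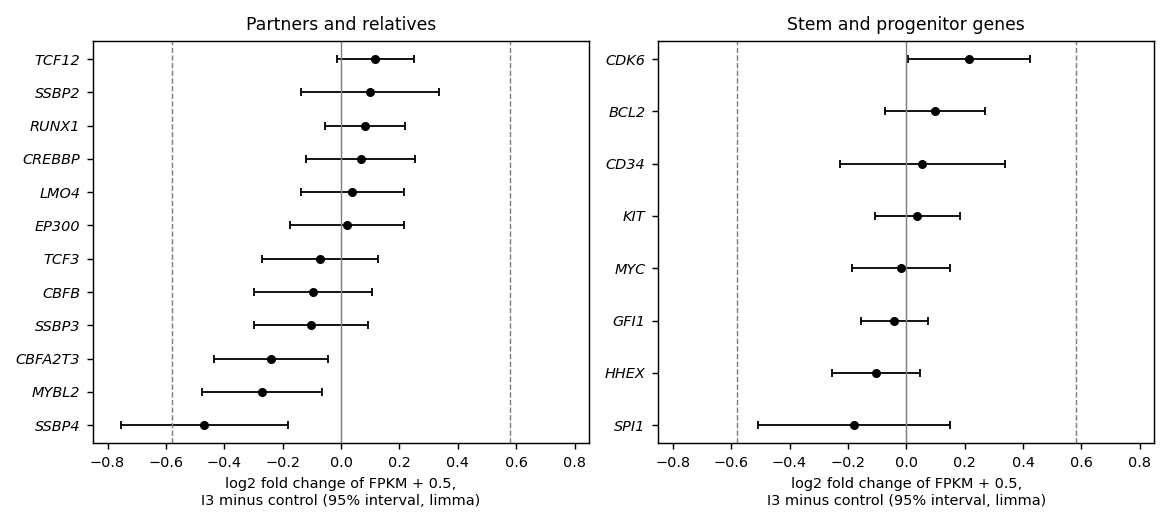
log2 fold change between I3 and control (horizontal axes, FPKM + 0.5) with its 95% interval from limma for the tested partners and relatives (left) and the tested stem and progenitor genes (right). SSBP4, MYBL2 and CBFA2T3 on the left and CDK6 on the right have intervals that leave out 0, and no estimate passes the dashed fold threshold of 0.58.

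Genes of the lineages driven by GATA1 were examined next. Of 16 erythroid genes, 12 were in the table and 3 passed the minimum, with none past the unadjusted p. TFRC, the transferrin receptor that dividing cells also use, had 120 FPKM, EPOR, the erythropoietin receptor, had 2.59 FPKM, and KLF1, an erythroid transcription factor, had 1.39 FPKM. HBG2 was listed at 0 in all 6 libraries, and HBA1, HBA2 and ALAS2 did not exceed 0.262 FPKM in any. The summed level of the list was 118.5 to 124.7 FPKM in control and 120.8 to 136.3 FPKM in I3 libraries, nearly all of it TFRC.

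Of 8 megakaryocyte genes, 1 of the 7 in the table passed the minimum. This was GP1BA, with 0.793 FPKM in control and 1.06 FPKM in I3 libraries (log2 fold change 0.26, 95% interval -0.11 to 0.63). All its I3 values were above all controls, as in 5.06% of all tested genes. PPBP was listed at 0 in all libraries. The summed level of the list was 1.54 to 1.73 FPKM in control and 1.55 to 2.55 FPKM in I3 libraries. Of 6 mast cell genes, a lineage that needs GATA2, none of the 5 in the table passed the minimum. TPSB2 and CPA3 led with 0.324 and 0.147 FPKM, MS4A2 was listed at 0 in all libraries, and the list summed to 0.193 to 1.01 FPKM in control and 0.416 to 0.641 FPKM in I3 libraries.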

How the data were processed

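RNA of Kasumi-1 cells was sequenced in 3 control and 3 I3 libraries (48 h), grouped by their titles. The authors deposited FPKM per gene and library. Per the submitters' processing notes, Trimmomatic, HISAT2, Cufflinks and HTSeq were used with hg38, without versions; the sources used here name no annotation. Exon lengths, GC content and coordinates came from GENCODE release 29 (GRCh38), which held 29703 of the 29810 identifiers. Reads were rebuilt from FPKM and exon length, and were whole within 0.1 read in all libraries for 95.8% of genes above 0. No value column was left out.

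limma 3.58.1 (R 4.3.3; eBayes with trend) tested log2(FPKM + 0.5) without covariates, since the deposited unit is not a count. Single values were compared with exact permutation tests (scipy 1.17.1). The GC trend was removed per library by lowess (statsmodels 0.14.6, span 0.3) on 99.8% of the tested genes. The other alternatives were pseudocounts of 0.1 and 1, no minimum or a minimum of 1 FPKM, and TPM, median-of-ratios and quantile scaling. Further ones were no trend, the replicate number as a block, voom on rebuilt reads (mean of at least 10), and each library left out. For GATA1 and ZFPM1, voom was fitted on all genes with any rebuilt reads. The procedure was tested on simulated data. Replicates were not copies of each other (chi-square per degree of freedom of at least 4.57).

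The members and lists were chosen with earlier results of these data known. Named beside the members and RUNX1 are the 2 most abundant genes of each list, those with an unadjusted p under 0.05, those at 0 in all libraries and the markers of Kasumi-1; SSBP2, SSBP3, TCF12, KLF1 and further low lineage genes were added after their values were seen. Some genes of the lists are not reported here by name.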

Additional observations from a re-analysis of the deposited data

How the results depend on the processing

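In all 17 alternatives, 0 of the 8 tested factors were called at the adjusted p. Over all genes, 0 were called in each direction with all 6 libraries, and with single libraries left out 0 to 1 were higher (1 without control 1) and 0 to 2 lower (2 without I3 1, 1 without I3 2). The 269 genes higher at the unadjusted p became 419 after rescaling to TPM, 545 without a minimum and 196 to 946 with single libraries left out (946 without control 1), and the 370 lower became 238 to 474 (242 without control 2, 238 without I3 3). The 2 factors lower at the unadjusted p became 1, LMO2, with the GC trend removed, with eBayes without trend and without a minimum, and 1 to 2 with single libraries left out, being 1 when a control library or I3 3 was left out. The cause was not tested. LMO2 stayed between -0.33 and -0.21 and LYL1 between -0.36 and -0.15 in all alternatives.

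Estimates near 0 changed sign. GATA2 was 0.046 with the GC trend removed, ERG 0.0024 in TPM and 0.0068 after quantile normalization, and the ratio of ZFPM1 to GATA1 0.017 with the GC trend removed. With single libraries left out, TAL1 ranged from -0.068 to 0.029, GATA2 from -0.19 to 0.098, ERG from -0.055 to 0.070, MYB from -0.12 to 0.0030, and the log2 ratios of GATA1 to GATA2 from -0.20 to 0.054, of ERG to FLI1 from -0.0022 to 0.095 and of ZFPM1 to GATA1 from -0.14 to 0.18.

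With the replicate number as a block, 363 genes were higher and 493 lower at the unadjusted p, and 3 factors were lower, LDB1 among them. The deviations of libraries that share a number had low correlations (0.063, 0.15 and -0.024), and not every library correlated best with its own number. The value for number 2 was the highest of all pairs. These deviations also carry the GC trends, so they cannot settle whether the numbers pair the libraries. Depth limits GATA1 and ZFPM1, and 3 libraries per group limit the rest.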

Other observations

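TAL1, LMO2, ERG and FLI1 also work in blood vessel cells, so endothelial genes were examined. Of 6 such genes, 5 were in the table and 2 passed the minimum, ESAM with 10.8 FPKM and PECAM1 with 1.76 FPKM. CDH5, KDR and TEK, which define endothelial cells, did not exceed 0.0191 FPKM in any library. The log2 fold changes of ESAM and PECAM1 were 0.026 and -0.023, and the summed level of the list was 12.2 to 12.6 FPKM in control and 11.2 to 15.3 FPKM in I3 libraries.

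Of 6 lymphoid genes, 5 were in the table and 1 passed the minimum. This was CD79A, a part of the B cell receptor that AML cells with t(8;21) can express, with 1.01 FPKM in control and 1.48 FPKM in I3 libraries (log2 fold change 0.36, 95% interval -0.11 to 0.83, overlapping groups). CD3D was next with 0.465 FPKM, and the summed level of the list was 1.59 to 2.27 FPKM in control and 1.33 to 2.53 FPKM in I3 libraries.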
